A study of Sus scrofa with 16 samples.

Results

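Transcripts of 7 genes of fat breakdown were followed in pig subcutaneous adipose tissue: PNPLA2, ABHD5, LIPE, MGLL, ADRB1, ADRB3 and AQP7. They were found on the array by gene name among the spots that are not controls, and a probe counted as measured if its signal was flagged as well above background on 8 or more of the 16 arrays. The probe of ABHD5 is written Abhd5 in the scanner files, so names were matched without regard to case. All 7 genes were found, out of 4631 genes with a symbol and a measured probe. LIPE had 3 probes and each of the others had 1, and all 9 probes passed. The tissue came from 8 pigs of a line with low residual feed intake (low-RFI, strain RFIneg) and 8 pigs of a line with high residual feed intake (high-RFI, strain RFIpl). Residual feed intake is the feed eaten beyond what body weight and growth predict, so a low value means an efficient animal. All 16 pigs weighed 20 kg and ate ad libitum, and the tissue of each was read on its own 1-colour Agilent array. The sample titles number the pigs of each line from 1 to 8, without saying what the number stands for, and replicates 5-8 are set against replicates 1-4 below.

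Lipolysis is the stepwise release of fatty acids from the triglyceride droplet of a fat cell. Catecholamines act on beta-adrenoceptors, cyclic AMP activates protein kinase A, and the kinase turns on the lipases at the droplet. PNPLA2 (adipose triglyceride lipase) removes the first fatty acid with the help of its coactivator ABHD5, LIPE (hormone-sensitive lipase) cuts the diacylglycerol, and MGLL (monoglyceride lipase) releases the last fatty acid and glycerol. AQP7 is the membrane channel through which glycerol leaves the fat cell. ADRB1 and ADRB3 encode the beta-1 and beta-3 receptors at the head of the cascade.

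Each probe is a 60-base oligonucleotide. The sequences below are those of the probes that read AQP7, LIPE nearest the start of its transcript, PNPLA2, MGLL and ADRB1, printed because the levels and correlations that follow rest on them. Capitals mark the longest run of letters that the probe shares with any probe of another name on the array, which is 13 or 14 bases here.
AQP7: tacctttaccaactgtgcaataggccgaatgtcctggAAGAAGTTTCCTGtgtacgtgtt
LIPE, transcript position 1013: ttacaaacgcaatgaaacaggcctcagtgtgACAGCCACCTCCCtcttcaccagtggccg
PNPLA2: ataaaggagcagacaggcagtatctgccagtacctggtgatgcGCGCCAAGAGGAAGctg
MGLL: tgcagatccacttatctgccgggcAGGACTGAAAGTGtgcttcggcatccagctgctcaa
ADRB1: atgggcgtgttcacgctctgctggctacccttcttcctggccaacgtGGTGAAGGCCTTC
The other LIPE probes start at transcript positions 2773 and 3065, and the last of these holds the polyadenylation signal AATAAA. The files place a probe on its transcript, and no genome position is given here.

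Between 68.7% and 80.3% of the spots of an array were well above background, and no spot was saturated. Levels are log2 of the processed intensity minus the array's own 75th percentile, so 0 is the brightness that 75% of the spots of that array do not exceed. A difference of 1 is a doubling of the intensity. Each of the 4 slides held 1 low-RFI and 1 high-RFI pig of each replicate set. Of 12 adipocyte marker genes on the list, 11 were measured, and ADIPOQ and LEP were well above background on 16 arrays. Low-RFI replicate 8 stood apart in skeletal muscle markers, with a mean level of 8.20 over 14 genes relative to the average array. The next highest were low-RFI replicate 6 at 1.37 and high-RFI replicate 7 at 0.59. High-RFI replicates 6 and 2 stood apart in skin epithelium markers, with mean levels of 3.26 and 2.04 over 6 genes. High-RFI replicate 7 came next at 1.34. In bulk tissue, fewer fat cells and less RNA per fat cell cannot be told apart.

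The lipases and their coactivator were well above background on every array. PNPLA2 had a lowest, median and highest level of 1.21, 1.87 and 2.18 in low-RFI pigs, against 1.57, 1.82 and 2.13 in high-RFI pigs. The lines overlapped almost fully, and the single low value was that of low-RFI replicate 1. MGLL had 1.83, 2.20 and 2.98 in low-RFI pigs, against 1.37, 2.08 and 2.65 in high-RFI pigs. ABHD5 had 0.99, 2.31 and 3.67 in low-RFI pigs, against 1.63, 2.09 and 2.999 in high-RFI pigs. Both extremes of ABHD5 were low-RFI pigs, replicate 1 at the bottom and replicate 3 at the top.

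The LIPE probe at position 3065 had 7.04, 7.56 and 7.86 in low-RFI pigs, against 7.10, 7.65 and 8.02 in high-RFI pigs. The probe at 2773 had 4.95, 5.52 and 5.99 in low-RFI pigs, against 4.93, 5.62 and 6.19 in high-RFI pigs. The probe at 1013 had 0.24, 0.79 and 1.64 in low-RFI pigs, against 0.40, 1.02 and 1.37 in high-RFI pigs. All 3 LIPE probes were well above background on 16 of 16 arrays and placed the lines over the same range.

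The receptor probes lay nearer to the background. ADRB1 was well above background on 16 of 16 arrays, with processed intensities of 92.6 to 235.4. It had a lowest, median and highest level of -2.12, -1.72 and -1.24 in low-RFI pigs, against -2.005, -1.87 and -1.46 in high-RFI pigs. ADRB3 was close to the detection limit, with processed intensities of 7.55 to 17.7. It was well above background on 14 of 16 arrays, on 8 of 8 in low-RFI pigs and on 6 of 8 in high-RFI pigs. High-RFI replicates 2 and 8 were the exceptions. Its levels were -5.64, -5.43 and -4.91 in low-RFI pigs, against -6.06, -5.59 and -5.13 in high-RFI pigs. Another probe, described in the files as a beta 3 adrenergic receptor but carrying no gene name, was well above background on 4 arrays and stayed outside the selection.

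AQP7, the glycerol channel, had a lowest, median and highest level of 0.20, 0.40 and 1.28 in low-RFI pigs, against 0.04, 0.61 and 1.33 in high-RFI pigs. Its values fell into a bright and a dim set of pigs in both lines. Low-RFI replicates 2 and 4 and high-RFI replicates 1 to 4 lay between 0.90 and 1.33, and every other pig lay at 0.58 or below.

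**Figure D1:**
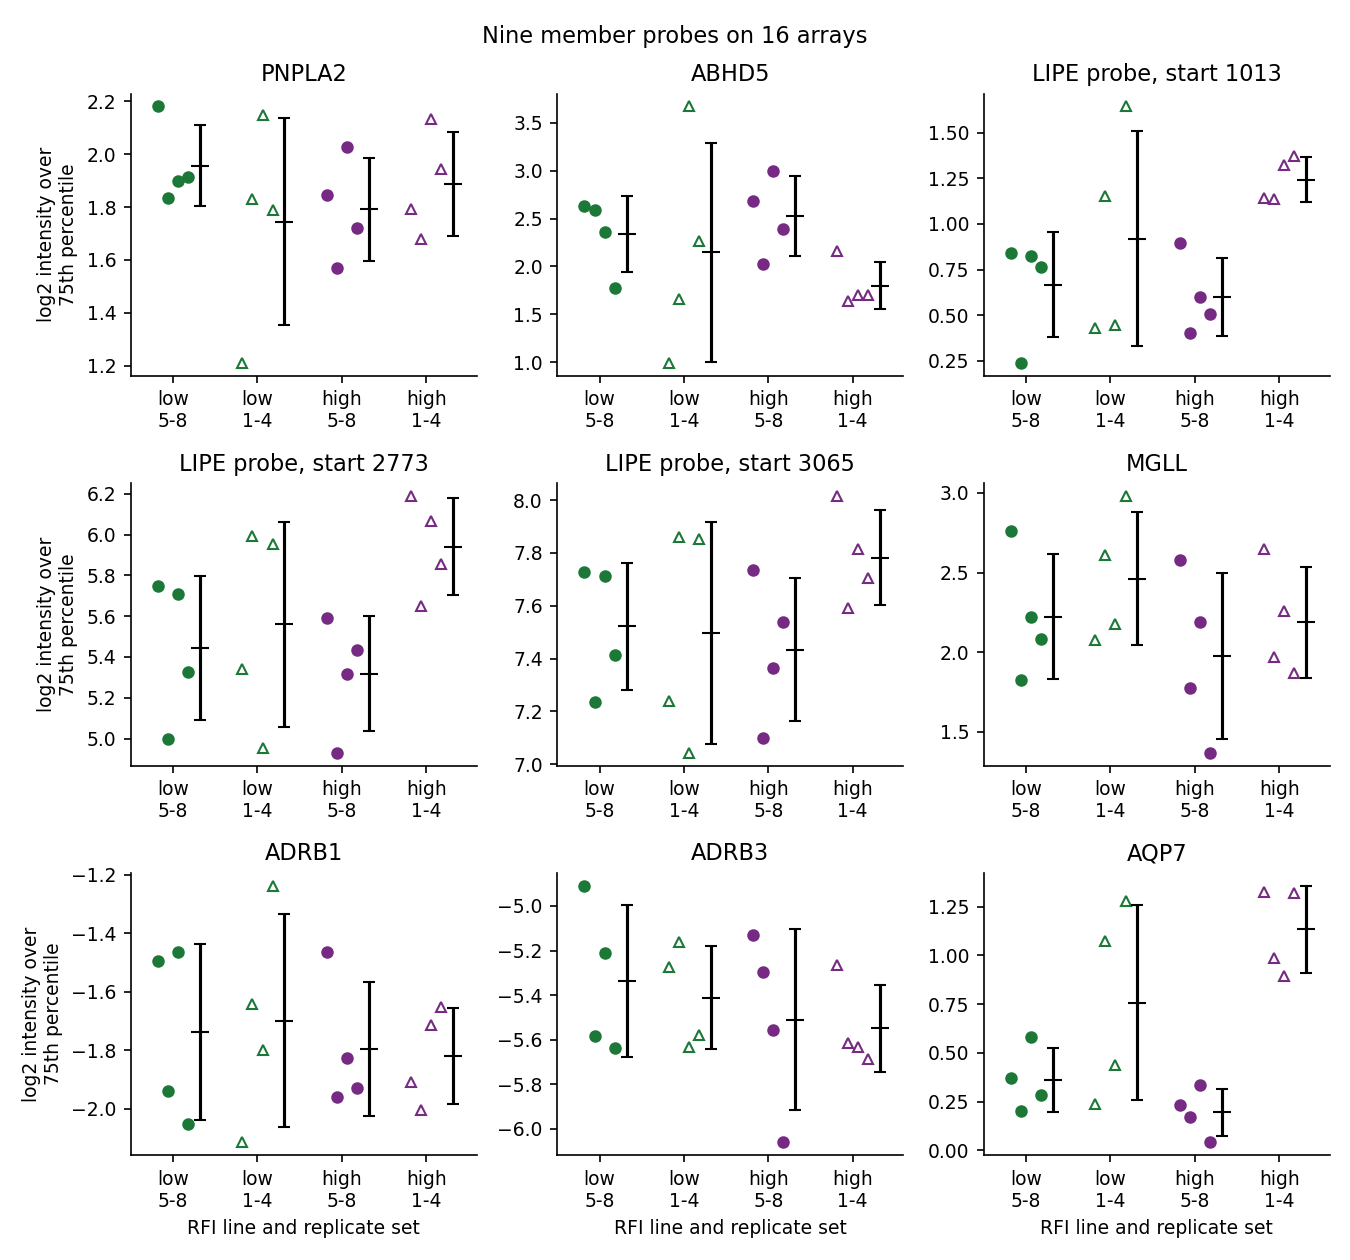
Level of each of the 9 probes (vertical axes: log2 intensity minus the array's 75th percentile, each panel with its own scale) in low-RFI and high-RFI pigs of replicates 5-8 (filled circles) and 1-4 (open triangles). Points are pigs and bars are the mean with 1 SD, n = 4. In the AQP7 panel the high-RFI replicates 5-8 lie at 0.33 or below and the high-RFI replicates 1-4 at 0.90 or above.

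The probes differed in how much they varied from pig to pig. ABHD5 had the largest SD over the 16 arrays, 0.64, and 87.9% of all measured probes had a smaller one. PNPLA2, the lipase it activates, had the smallest SD among the 9 probes, 0.24, and 33.0% of all probes lay below that. AQP7 had an SD of 0.46, MGLL 0.42 and the LIPE probe at 1013 0.41. The adrenoceptors had SDs of 0.25 for ADRB1 and 0.29 for ADRB3. At the dim signal of ADRB3 the part of that spread that is measurement error was not tested.

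The lines were compared first, since they are the conditions of the study. None of the 9 probes was called at an adjusted p under 0.05 in limma, and 0% of all 32070 probes were (1178 of them had an unadjusted p under 0.05, and 0 of the 9 did). The low-RFI and high-RFI values overlapped for every one of the 9 probes. Across all probes 0.0125% had lines that did not overlap. MGLL had the largest line difference, at 0.26 (SE 0.20), with a mean of 2.34 ± 0.40 in low-RFI and 2.08 ± 0.43 in high-RFI pigs (SD, n = 8 each). ADRB3 followed at 0.16 (SE 0.14), and normexp background correction turned that to -0.27. AQP7 differed by -0.10 (SE 0.22), with a mean of 0.56 ± 0.40 in low-RFI and 0.66 ± 0.53 in high-RFI pigs (SD, n = 8 each). The 3 LIPE probes differed by -0.13, -0.13 and -0.10, ABHD5 by 0.08 (SE 0.31), ADRB1 by 0.09 (SE 0.13) and PNPLA2 by 0.01 (SE 0.13).

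The median line difference of the 9 probes was 0.01, beside 0.00 over all probes. Skeletal muscle markers had a median line difference of 1.34, with 14 of 14 above 0. Skin epithelium markers had -1.49, with 5 of 6 below 0. The medians of the other marker lists ran from -0.37 to 0.18, and no marker was called between the lines. The part of these cell types in the line differences was not tested. The 95% intervals bound what these 16 pigs could show. The interval of PNPLA2 excluded line differences above 1.21-fold, and that of ABHD5, the widest on the high side, differences above 1.67-fold. For MGLL the interval reached 1.60-fold higher in low-RFI pigs. Each array is 1 pig, so the tests measure the spread between pigs with the array's own error in it.

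AQP7 differed between the replicate sets. In low-RFI pigs it stood at 0.37, 0.20, 0.58 and 0.28 in replicates 5 to 8, against 0.24, 1.07, 0.44 and 1.28 in replicates 1 to 4. In high-RFI pigs it stood at 0.23, 0.17, 0.33 and 0.04 in replicates 5 to 8, against 1.33, 0.99, 0.90 and 1.32 in replicates 1 to 4. The sets overlapped in low-RFI pigs, where replicates 1 and 3 lay as low as replicates 5-8, and did not overlap in high-RFI pigs. Over both lines AQP7 averaged 0.28 ± 0.16 in replicates 5-8 and 0.95 ± 0.41 in replicates 1-4 (SD, n = 8 each).

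The AQP7 difference between the sets was -0.67 (SE 0.15), 1.59-fold lower in replicates 5-8, with an adjusted p of 0.0265 in limma. In 8 of 8 pigs of replicates 5-8 it lay below the median of replicates 1-4, a count not made over all probes. It was the 1 call among the 9 probes, and 5.18% of all probes were called in that comparison, 2% higher and 3.19% lower, so 1 of 9 is near the background. That background itself ran from 604 to 4784 probes, beside 1662 with all pigs, when single pigs were left out. At an unadjusted p under 0.05 in limma, 7530 of all probes (23.5%) and 2 of the 9 differed between the sets. Within slides 1 to 4 the AQP7 difference was -0.83, -0.31, -0.61 and -0.93. Its size stayed between -0.77 and -0.61 when any single pig was left out. The call was lost without low-RFI replicate 2 (adjusted p = 0.0572), low-RFI replicate 4 (0.0551), high-RFI replicate 1 (0.0526), high-RFI replicate 4 (0.0574) or high-RFI replicate 8 (0.0532), and with normexp background correction (-0.58, adjusted p = 0.158), all in limma. Without low-RFI replicate 8, the pig highest in muscle markers, the AQP7 difference was -0.68 (adjusted p = 0.0347 in limma).

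LIPE pointed the same way as AQP7 without passing the test in limma. Its probe at 1013 stood at 0.84, 0.24, 0.83 and 0.76 in low-RFI replicates 5 to 8, against 0.43, 1.15, 0.45 and 1.64 in low-RFI replicates 1 to 4. In high-RFI pigs the same probe stood at 0.90, 0.40, 0.60 and 0.51 in replicates 5 to 8, against 1.14, 1.14, 1.32 and 1.37 in replicates 1 to 4. Again the low-RFI sets overlapped, with low-RFI replicates 1 and 3 at the low end, and the high-RFI sets were apart. The set difference was -0.45 (SE 0.17, adjusted p = 0.126) for the probe at 1013, -0.37 (SE 0.18, adjusted p = 0.224) for that at 2773 and -0.16 (SE 0.15, adjusted p = 0.536) for that at 3065, all in limma. For each of the 3 probes, 8 of 8 pigs of replicates 5-8 lay below the median of replicates 1-4. The 3 probes read the same gene, and this count was not made over all probes. Within slides the LIPE difference was less steady than that of AQP7. On slide 2 it was 0.087 at 1013, 0.17 at 2773 and 0.32 at 3065, and on slides 1, 3 and 4 it lay below 0 for each probe.

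ABHD5 lay on the other side, above the median of replicates 1-4 in 8 of 8 pigs of replicates 5-8, again without a count over all probes. It averaged 2.43 ± 0.39 in replicates 5-8 and 1.97 ± 0.79 in replicates 1-4 (SD, n = 8 each), a difference of 0.46 (SE 0.30, adjusted p = 0.373 in limma). That value depended on low-RFI replicate 3. Without this pig, whose ABHD5 level of 3.67 was the highest of all, the ABHD5 difference was 0.71 (adjusted p = 0.0277). Both the LIPE probe at 1013 (-0.53, adjusted p = 0.0371) and that at 2773 (-0.48, adjusted p = 0.0494) then passed too in limma, which made 4 of the 9 probes with AQP7, as the count over all probes went to 4784. MGLL differed between the sets by -0.22 (SE 0.19), PNPLA2 and ADRB3 by 0.06 each and ADRB1 by -0.01, none of them called. The median set difference of the 9 probes was -0.16, beside -0.03 over all probes.

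**Figure D2:**
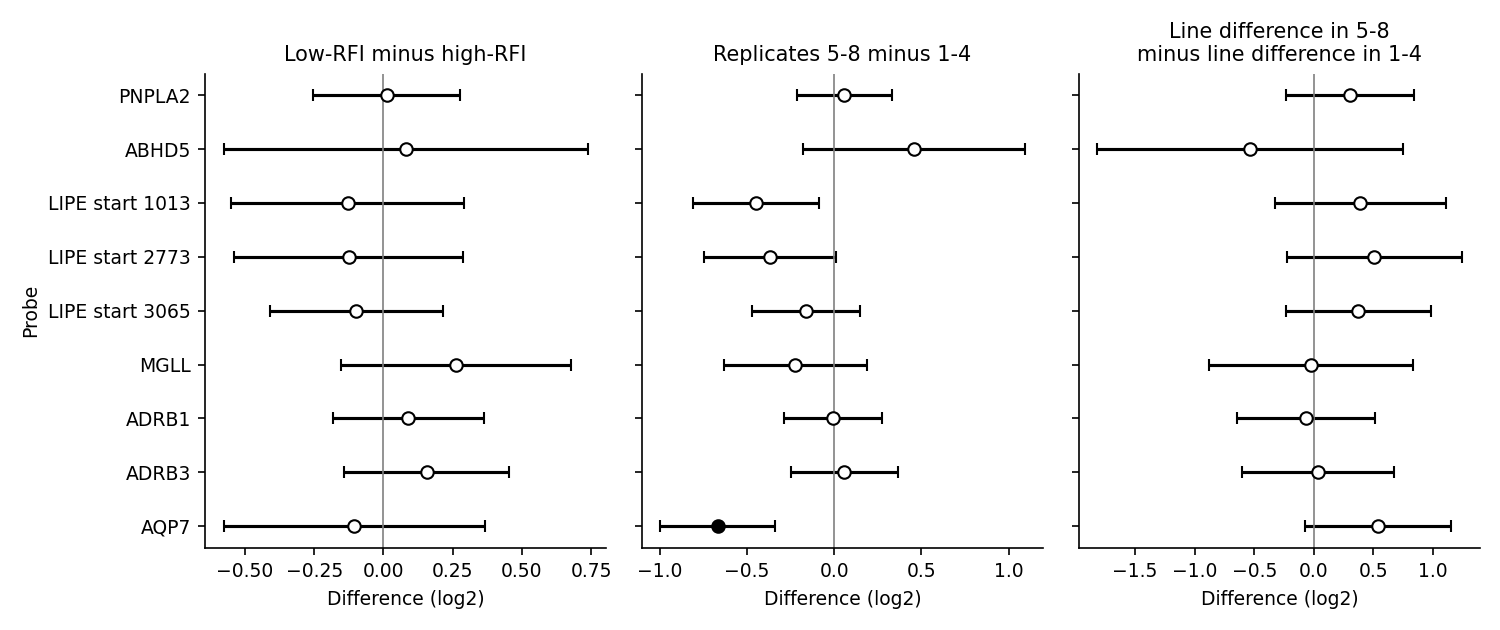
Differences (horizontal axes, log2) with 95% intervals for the 9 probes: low-RFI minus high-RFI, replicates 5-8 minus 1-4, and the line difference in replicates 5-8 minus that in 1-4. The filled point is the 1 difference with an adjusted p under 0.05 in limma, AQP7 between the sets at -0.67.

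The sets were then compared within each line. In low-RFI pigs AQP7 differed by -0.40 (SE 0.20, adjusted p = 0.465 in limma), and 0% of all probes were called. In high-RFI pigs it differed by -0.94 (SE 0.20, adjusted p = 0.0414 in limma), and it was 1 of 9 probes called where 1.33% of all probes were. The sets of low-RFI pigs overlapped for all 9 probes, where 4.4% of all probes did not. In high-RFI pigs they did not overlap for 3 of the 9 probes, AQP7 and LIPE at 1013 and 2773, where 16.4% of all probes did not overlap. Over all pigs the sets overlapped for all 9, where 0.393% did not. The difference between the lines in this respect was tested as an interaction. It was 0.54 (SE 0.29) for AQP7, with an unadjusted p of 0.0782 and an adjusted p of 0.749 in limma, so the lines were not shown to differ. None of the 9 probes was called for it, nor was any of the 32070 probes, and 2184 probes but none of the 9 had an unadjusted p under 0.05. The 9 interaction values ran from -0.53 for ABHD5 to 0.54 for AQP7, with a median of 0.31 beside 0.00 over all probes.

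No adipocyte marker gene was called between the sets. Of the 11 measured, 9 had a difference below 0, and their median was -0.18, beside -0.03 over all probes. Their mean level relative to the average array ran from -0.36 to 0.25 in replicates 5-8 and from -0.31 to 0.33 in replicates 1-4. In high-RFI pigs this mean ran from -0.36 to -0.06 in replicates 5-8 and from 0.09 to 0.24 in replicates 1-4. In low-RFI replicates 1 to 4 it was -0.26, 0.32, -0.31 and 0.33. Low-RFI replicates 5 to 8 had 0.15, -0.23, 0.25 and -0.0036. Of 8 endothelial markers 5 had a difference below 0, with a median of -0.16 and none called. Among them PECAM1 had -0.34 (adjusted p = 0.0543 in limma), CLDN5 -0.58 (adjusted p = 0.0954 in limma) and VWF -0.41 (adjusted p = 0.186 in limma), picked after their values were seen. KDR, TEK and SOX18 went the other way, at 0.19, 0.11 and 0.04. The mean endothelial level ran from -0.38 to 0.25 in replicates 5-8 and from -0.28 to 0.20 in replicates 1-4. Of 6 fibroblast and preadipocyte markers 4 had a difference below 0, with a median of -0.13 and none called. Skeletal muscle markers had differences above 0 for all 14, with none called and low-RFI replicate 8 far above the rest. Skin epithelium markers had 1 of 6 called, higher in replicates 5-8. Macrophage and T and NK cell markers were highest in high-RFI replicate 5, and none was called. The part of these cell types in the AQP7 difference was not tested.

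The probes of LIPE rose and fell together over the arrays. They did not agree in level, with means of 0.86 at 1013, 5.57 at 2773 and 7.56 at 3065 over the 16 arrays. The probes at 2773 and 3065 had a Pearson r of 0.97 and a Spearman rho of 0.94 over the 16 arrays (permutation p = 1e-05, the smallest that 100000 resamples can give; adjusted p = 3e-05 over 3 pairs). The probes at 1013 and 2773 had r = 0.87 and rho = 0.88 (permutation p = 3e-05, adjusted p = 4.5e-05), and those at 1013 and 3065 had r = 0.82 and rho = 0.85 (permutation p = 1.3e-04, adjusted p = 1.3e-04). Without the 2 pigs farthest from the median the values were 0.95, 0.87 and 0.82. Within low-RFI pigs r was 0.97, 0.87 and 0.85, and within high-RFI pigs 0.96, 0.87 and 0.78. Within replicates 5-8 it was 0.98, 0.87 and 0.84, and within replicates 1-4 it was 0.99, 0.82 and 0.85. The permutation p-values test each pair against no relation at all. Other genes followed the probe at 3065 as closely as the probe at 1013 did, with DBI at r = 0.85 and MTCH1 and TKT at 0.83. None of 4525 other genes followed it as closely as the probe at 2773.

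**Figure D3:**
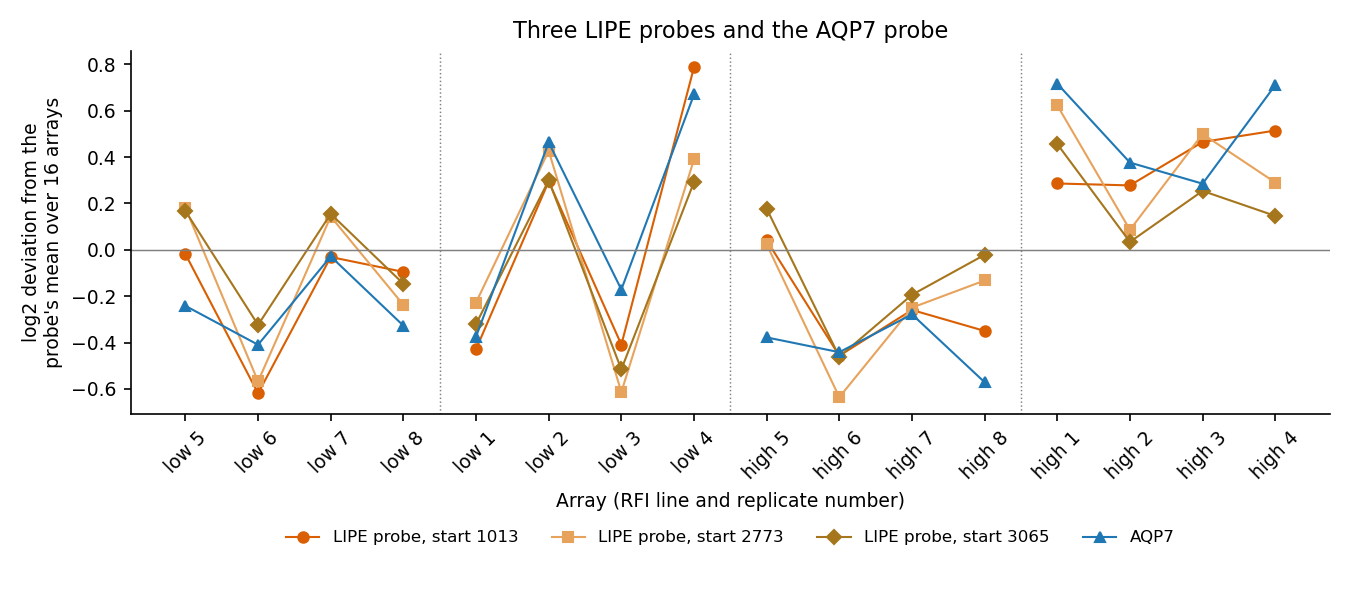
Level of the 3 LIPE probes and of the AQP7 probe on each array (vertical axis: log2 deviation from the probe's own mean over 16 arrays; horizontal axis: pigs by line and replicate number, dotted lines between the 4 groups of 4). All 4 probes lie below their own mean in low-RFI replicates 1, 3, 6 and 8 and high-RFI replicates 6 to 8, and above it in low-RFI replicates 2 and 4 and high-RFI replicates 1 to 4.

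AQP7 and LIPE had the highest r of the 21 gene pairs, just short of an adjusted p of 0.05. With each gene read by its brightest probe, r was 0.69 and rho 0.65 (permutation p = 0.00377 and 0.00756, adjusted p = 0.0511 and 0.0529 over 21 gene pairs). It was 0.72 without low-RFI replicate 3 and high-RFI replicate 6. Within the lines r was 0.73 in low-RFI and 0.67 in high-RFI pigs, within replicates 5-8 it was 0.45, and within replicates 1-4 it was 0.88. After the means of line and set were taken out it was 0.75. Many other genes followed each of these genes more closely. Among 4525 genes without missing values, AQP7 held rank 142 by r with LIPE, and LIPE rank 416 by r with AQP7. As a description over the same 16 arrays, AQP7 had r = 0.87 with the LIPE probe at 1013 and 0.78 with that at 2773. The probe at 1013 thus followed AQP7 as closely as it followed the LIPE probes at 2773 (r = 0.87) and 3065 (0.82).

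MGLL had positive values with LIPE and with both receptors, none past an adjusted p of 0.05 by Pearson's r. The receptor values depended on the background correction. Under normexp, r was -0.06 for MGLL with ADRB1, -0.48 for MGLL with ADRB3 and -0.07 for LIPE with ADRB1, while it was 0.76 for LIPE with MGLL. In the main setting MGLL and ADRB1 had r = 0.67 and rho = 0.67 (permutation p = 0.00487 and 0.00521, adjusted p = 0.0511 and 0.0529), and r = 0.55 without low-RFI replicate 4 and high-RFI replicate 8. Within the groups that r was 0.82 in low-RFI pigs, 0.45 in high-RFI pigs, 0.75 in replicates 5-8 and 0.63 in replicates 1-4. With the dim ADRB3 probe MGLL had r = 0.63 and rho = 0.61 (permutation p = 0.00886 and 0.0140, adjusted p = 0.0620 and 0.0678), and r = 0.69 without the same 2 pigs. With LIPE it had r = 0.59 and rho = 0.75 (permutation p = 0.0167 and 0.00131, adjusted p = 0.0702 and 0.0275), and 0.61 without low-RFI replicate 3 and high-RFI replicate 6. LIPE and ADRB1 had r = 0.56 and rho = 0.60 (permutation p = 0.0239 and 0.0162, adjusted p = 0.0835 and 0.0678), and 0.61 without the same pair of pigs. By r with MGLL in the main setting, ADRB1 held rank 32, ADRB3 rank 53 and LIPE rank 92 among 4525 genes.

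PNPLA2 and its coactivator ABHD5 had r = 0.61 and rho = 0.51 (permutation p = 0.0141 and 0.0490, adjusted p = 0.0702 and 0.147). That relation rested on low-RFI replicates 1 and 3, the lowest and highest pigs for ABHD5. Without them r was 0.21. Within low-RFI pigs it was 0.81 and within high-RFI pigs 0.11. Among 4525 genes, PNPLA2 held rank 261 by r with ABHD5, and ABHD5 rank 179 by r with PNPLA2. PNPLA2 had r = 0.22 with LIPE, the next lipase of the chain, and ABHD5 had r = -0.25 with LIPE and -0.30 with AQP7. By Pearson's r 0 of the 21 pairs passed an adjusted p of 0.05, and by Spearman's rho 1 did, LIPE with MGLL.

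**Figure D4:**
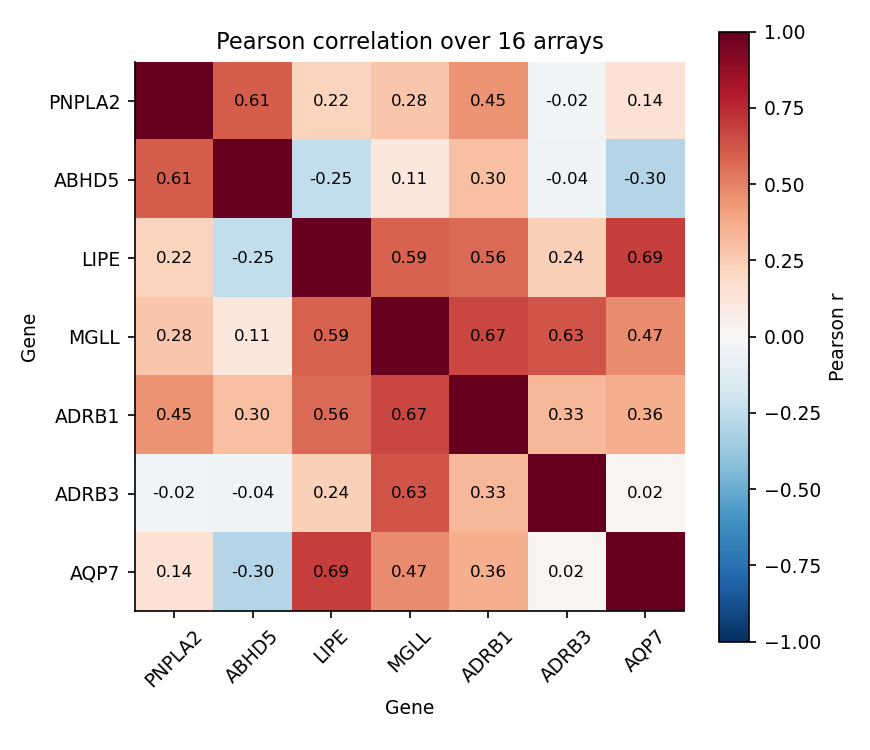
Pearson r over 16 arrays for every pair of the 7 genes, each read by its brightest probe (colour and printed value; both axes list the genes). The highest values are those of LIPE with MGLL, ADRB1 and AQP7, of MGLL with ADRB1 and ADRB3, and of ABHD5 with PNPLA2, from 0.56 to 0.69.

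For each gene the 3 genes with the most similar pattern were taken by Pearson's r over the 16 arrays, out of 4525 genes without missing values. These values are descriptions, chosen as the highest of many. AQP7 was most like TMEM110 (r = 0.94), ATP6V0E1 (0.93), a subunit of the proton pump of vesicles, and ADIPOR2 (0.92), a receptor of adiponectin. Their set differences were -0.53, -0.58 and -0.48, which their choice by likeness to AQP7 largely fixes. LIPE was most like DBI (0.85), which binds acyl-CoA, MTCH1 (0.83), a mitochondrial outer membrane protein, and TKT (0.83), transketolase.

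ABHD5 was most like ARF6 (0.89), a small GTPase of membrane traffic, FADD (0.89), an adaptor of death receptors, and HSDL2 (0.88). PNPLA2 was most like HK2 (0.89), a hexokinase, ARMT1 (0.87) and TCP1 (0.85), a subunit of the cytosolic chaperonin. MGLL was most like a probe whose accession names HSF2 and whose description names a protein kinase inhibitor (0.84), so that its identity is uncertain. EPAS1 (0.82), a hypoxia-inducible transcription factor, and ALG5 (0.78), an enzyme of glycan assembly, came next. ADRB1 was most like CAPN2 (0.79), a calpain, UBE2Q1 (0.78) and ARL1 (0.75). ADRB3 had lower values throughout, with SLC15A2 (0.76), a peptide transporter, USP21 (0.72) and RFX5 (0.71).

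Other genes of the lipolytic cascade came from a list of 50, of which 30 were on the array and 28 were measured. None was called in limma between the lines, between the sets or for the interaction. Their median line difference was 0.00 and their median set difference -0.10, beside 0.00 and -0.03 over all probes. Between the lines the smallest p belonged to PRKG1, a cyclic GMP-dependent kinase, at 0.39 (SE 0.16), and to PRKACB, a catalytic subunit of protein kinase A, at -0.29 (SE 0.15). Between the sets it belonged to ADCY5, an adenylate cyclase, at -0.50 (SE 0.16, adjusted p = 0.0800 in limma). ADCY5 averaged -1.38 ± 0.27 in replicates 5-8 and -0.88 ± 0.39 in replicates 1-4 (SD, n = 8 each). For the interaction the smallest p belonged to ADORA1, an adenosine receptor, at 1.12 (SE 0.45), and to PRKAR1A, a regulatory subunit of protein kinase A, at -0.59 (SE 0.25).

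**Figure D5:**
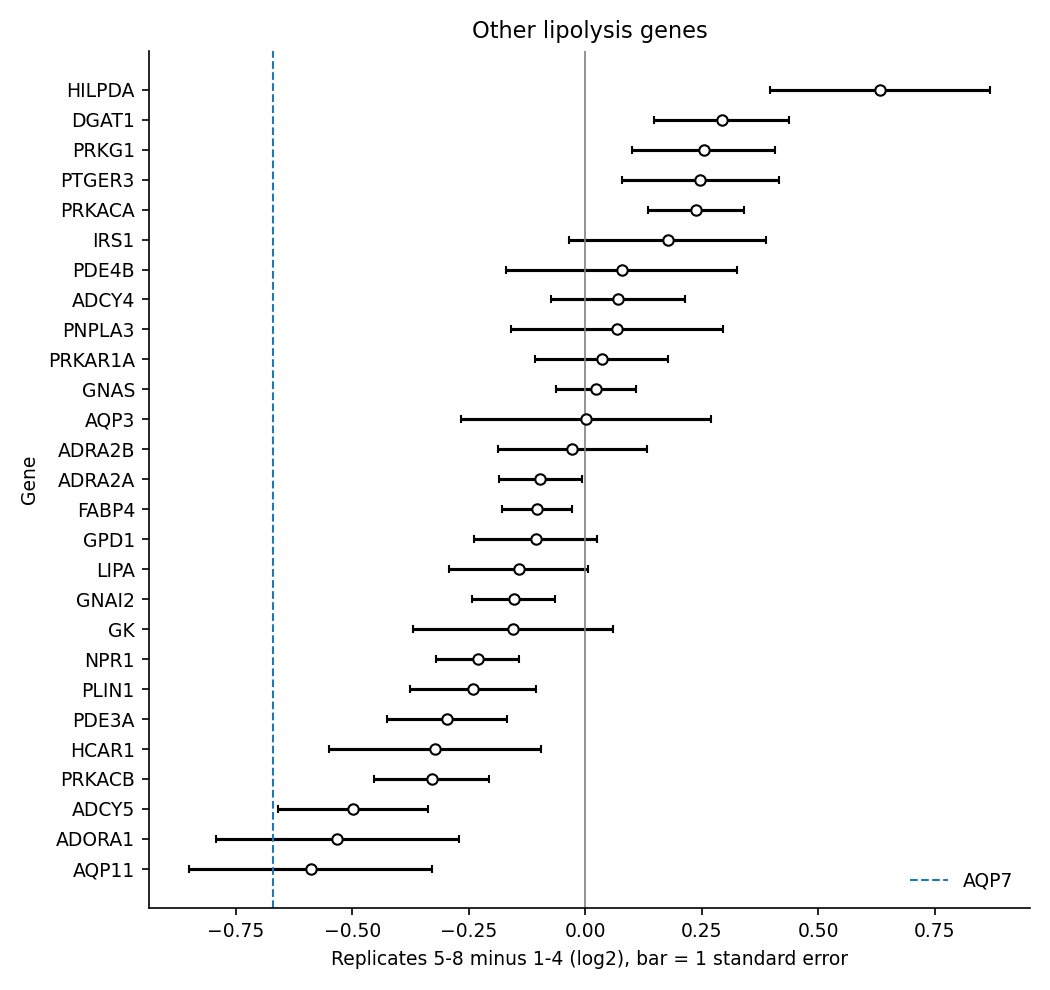
Set difference (horizontal axis: replicates 5-8 minus 1-4, log2, bars 1 SE) of 27 measured genes of the wider lipolysis list (vertical axis), with AQP7 as a dashed line at -0.67. Of the 27 genes shown, 15 lie below 0 and 12 above, and none was called.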

How the data were processed

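The submitters hybridised Cy3-labelled RNA of each pig, 150 ng, to an Agilent array, per the labels' protocols. Per the file headers, Agilent Feature Extraction 10.7.3.1 quantified the deposited intensities: the processed signal was background subtracted and detrended within an array, and the mean and background intensities were not corrected. The authors' deposited table of log2 values equals the log2 processed signal minus each array's median over its 28963 spots (r = 1 on every array). It holds 8 of the 9 probes, without ADRB3. The submitters' processing notes name R 2.10.0, with no role. The genome build is not given in the sources used here.

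Levels here are log2 processed signals from which each array's 75th percentile was subtracted. Outlier spots were left out and the spots of a probe averaged. Probes were kept if flagged as well above background on 8 or more of 16 arrays, with at least 3 values in each line and set, which left 32070 of 43603. Symbols came from names, gene IDs or accessions in the files, the last 2 looked up in the gene table of Sscrofa11.1, for names only. A gene was read by its brightest kept probe. limma 3.58.1 in R 4.3.3 was fitted over all kept probes with terms for line, for line and set, or for these and their interaction (two-sided, Benjamini-Hochberg over all kept probes, threshold 0.05). Differences are low-RFI minus high-RFI or replicates 5-8 minus 1-4. Correlations used 100000 permutations in numpy 2.4.6, or exact permutations within 8 arrays, with ranks from scipy 1.17.1. The fits were tested on simulated data. The genes, lists and comparisons were chosen with earlier results of these data known. All 7 genes are named. From the wider list, genes past the threshold and the 2 with the smallest p per comparison are named, and for likeness the 3 highest r per gene. A gene of the wider list that this rule picks is not reported here, and the list's counts and medians include it. Alternatives were other background correction, scaling, filters, array weights, blocks, separate fits, probe means and leaving out each pig. The number of arrays limits the precision.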

Additional observations from a re-analysis of the deposited data

Results flagged for a closer look

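PNPLA2 in low-RFI replicate 1 stood apart from the other pigs of its line. Its level was 1.21, the next pig of the line lay at 1.79, and the gap took 0.597 of the line's whole range. Over the 18 combinations of probe and line examined this was the 1 such pig. Chance alone flags about 1 in 20 combinations, so 1 in 18 is near that rate. The same pig also had the lowest ABHD5 level of all, 0.99, and the lowest ADRB1 level, -2.12. It was not the lowest for LIPE, MGLL, ADRB3 or AQP7. Its array had the lowest 75th percentile of signal, 401, where the other arrays had 435 to 555. The part of array brightness in these levels was not tested.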

How the results depend on the processing

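Of the alternatives to the line comparison, all 29 called 0 of the 9 probes, and 27 called 0 of all probes. A fit within replicates 1-4 alone called 5 of all probes, and leaving out single pigs gave 0 to 1. Between the sets, normexp background correction called 9 of all probes and 0 of the 9, no filter on dim probes called 865, array weights 5305 and 3 of the 9, a fit within low-RFI pigs 0 and 0, and a fit within high-RFI pigs 1467 and 2 of the 9. Leaving out single pigs gave 604 (without high-RFI replicate 4) to 4784 (without low-RFI replicate 3) of all probes, and 0 to 4 of the 9. All but low-RFI replicates 1, 6 and 8 and high-RFI replicate 5 moved the count over all probes by more than 1.5 times, and why was not tested. AQP7 kept its sign in all 26 alternatives and its call in 19, and its interaction was uncalled in all 24. With array weights the LIPE probes at 1013 and 2773 passed. The interaction called 0 probes under each of its 24 alternatives. The number of gene pairs with an adjusted p under 0.05 was 5 with normexp, 3 with quantile scaling, 5 after line and set means were removed, 1 with the mean of the LIPE probes and 1 with Spearman's rho. LIPE with AQP7 was among them in the first 4. ABHD5 with PNPLA2 was among them with normexp (r = 0.64, adjusted permutation p = 0.041) and quantile scaling (r = 0.67, adjusted permutation p = 0.039). Both values include low-RFI replicates 1 and 3. Pairs with the receptors changed most: under normexp ADRB1 with ADRB3 passed at 0.82 and PNPLA2 with ADRB3 at -0.63, beside 0.33 and -0.02, and the values of MGLL and LIPE with ADRB1 fell below 0. The 3 LIPE probe pairs passed throughout.

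Changes of sign occurred among uncalled differences alone, and their cause was not tested. Between the lines, normexp gave -0.27 for ADRB3, -0.023 for ADRB1, and 0.018 and 0.015 for LIPE at 3065 and 2773. A fit within replicates 5-8 gave 0.17 for AQP7, -0.19 for ABHD5, and 0.088, 0.13 and 0.065 for LIPE at 3065, 2773 and 1013. A fit within replicates 1-4 gave -0.14 for PNPLA2. Between the sets, array weights gave -0.019 for ADRB3, the fit within high-RFI pigs -0.10 for PNPLA2 and 0.025 for ADRB1, the fit within low-RFI pigs 0.024 for LIPE at 3065, and normexp 0.042 for ADRB1. For the interaction, normexp gave -0.0073 for ADRB3 and 0.012 for ADRB1, array weights 0.047 for MGLL and 0.042 for ADRB1, and median scaling 0.013 for MGLL. Leaving out single pigs gave line differences of -0.12 to 0.26 for ABHD5 and -0.036 to 0.10 for PNPLA2. It gave set differences of -0.0090 to 0.14 for ADRB3, -0.036 to 0.11 for PNPLA2 and -0.069 to 0.066 for ADRB1. It gave interactions of -0.15 to 0.16 for ADRB3, -0.23 to 0.17 for MGLL and -0.20 to 0.091 for ADRB1.

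Replicate numbers are shared by the lines, but same-numbered pigs did not deviate together (correlations of -0.29 to 0.32 over all probes). With the replicate block 0 probes were called between the lines, with 1540 at an unadjusted p under 0.05, and the pairing changed no call among the 9. Normexp lowered the median line difference over all probes by 0.118. ADRB3, near background, is the probe that signal limits most.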
